A study of Homo sapiens with 16 samples.

Results

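The genes described here are the cyclins, cyclin-dependent kinases (CDKs), CDK inhibitors and retinoblastoma (RB) family members that drive and restrain the cell cycle, with the kinases, phosphatases and SKP2-CKS proteins that act on them. Members were chosen by gene name, 38 in all of 57820 genes in the table, and each of the 38 had an FPKM (fragments per kilobase of transcript, scaled to library size) above 1 in at least 1 library, the condition that left 18925 genes for testing. HEK-293 T-REx cells, which derive from human embryonic kidney and carry an insertion site for a tetracycline-controlled transgene, were the source of the RNA. One line was made to produce F-Cherry-HCF-2 Fn3nc*, a form of host-cell factor 2 with substitutions in the interface of its fibronectin type 3 segments Fn3n and Fn3c, and the other F-Cherry-HCF-2 WT, the unaltered protein. Both proteins carried N-terminal Flag and Cherry tags, and both lines were selected with hygromycin and grown in serum free of tetracycline. Doxycycline at 1 μg/ml was added to all cultures, and poly(A) RNA was collected 1, 2, 4 and 6 days later, with 2 libraries in each of 8 groups and 8 libraries in each line. Each protein stands for 1 line and no uninduced or transgene-free library was analysed here, so an effect of the protein, of the line and of time in doxycycline cannot be told apart.

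A cyclin binds a CDK, switches it on and thereby marks a stage of the cycle. D-type cyclins with CDK4 and CDK6, then E-type cyclins with CDK2, phosphorylate RB and its relatives p107 and p130, which frees E2F factors to transcribe the genes of DNA synthesis, whereas cyclins A and B with CDK2 and CDK1 carry the cell through S phase and mitosis. INK4 inhibitors block CDK4 and CDK6, CIP/KIP inhibitors bind a wider range of cyclin-CDK complexes, WEE1 and PKMYT1 add inhibitory phosphates to CDKs, and CDC25 phosphatases take these off. A further set, cyclins C, H, T1 and T2 with CDK7, CDK8 and CDK9, acts mainly on RNA polymerase II. Much of the control of these proteins lies in phosphorylation and degradation, which mRNA does not measure.

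Libraries held 20270033 to 31006448 expected counts, with 26411 to 31713 genes detected except in WT day 4 replicate 2, which had 36469. The 2 Fn3nc* day 1 libraries were the deepest, at 31006448 and 30736213, and no other library held more than 27099466. The duplicates of each group differed by more than the sampling noise of counting. The chi-square per gene was 2.62 for Fn3nc* day 1 and 6.29 to 18.2 for the other groups, highest for WT day 4. What part the depth and closeness of the Fn3nc* day 1 pair had in its comparisons was not tested. Since the sources say only that induction was done in duplicate, p-values measure a spread that may be technical. Of 7 marker genes of HEK-293 cells, EYA1, NEFL and INA had an FPKM above 1 in all 16 libraries and NEFM and SOX11 in none, while 11 of 12 markers of blood, endothelium, fibroblasts, squamous epithelium and liver stayed under 1 in each library and COL1A1 lay between 1.09 and 2.92. The summed FPKM of the 7 HEK-293 markers lay between 31.9 and 34.1 on day 6, after 39.0 to 40.0 on day 1, in the Fn3nc* line, and between 63.5 and 64.9 on day 6, after 34.5 to 36.3 on day 1, in the WT line, and its part in the results was not tested. The markers did not move as a set: the highest FPKM of NEFL was 52.1 in the WT line and 20.9 in the Fn3nc* line, and that of INA was 9.22 and 17.9. Levels are given for each library as CPM, counts scaled to a common library size after TMM normalization. The words rose, fell, higher and lower with a test stand for an adjusted p under 0.05 in edgeR's quasi-likelihood test together with a change of more than 0.5 on the log2 scale, and log2 fold changes carry ± their standard error. The day comparisons of a line share its day 1 libraries.

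On the scale per transcript length, which allows genes to be set beside each other, the most abundant members were CCNB1 (median 210.4 FPKM over 16 libraries), CDK1 (176 FPKM), CDK4 (171 FPKM) and CKS2 (161 FPKM), and the scarcest were CDKN1C (0.75 FPKM), CDKN2D (4.08 FPKM) and CDK9 (15.0 FPKM). CDKN1C reached an FPKM above 1 in 5 of the 16 libraries, and the other members in each library. The group with the highest mean CPM of a gene was Fn3nc* day 1 for 12 of the 38 members (31.6%), against 27.8% of all genes tested, and the group with the lowest was Fn3nc* day 1 for 16 (42.1%), against 26.1% of all genes.

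Proximal promoters are shown for 4 members whose day 6 responses differed between the lines: CDC25A and RBL1, which fell in the Fn3nc* line, CCNE1, which fell in the WT line, and CKS1B, which rose in the WT line. They were picked after their values were seen. The sequences are the 250 bases before the RefSeq start of transcription, read 5′ to 3′ on the gene's strand, in GRCh38.p14 coordinates. Capitals mark the words TTTCCCGC, TTTGGCGC and TTTCGCGC (bound by E2F factors), CCAAT (the NF-Y box) and TTTGAA and TTTAAA (the core of the CHR element of genes expressed in G2 and mitosis), searched on both strands, and no marked word overlaps another.
CDC25A (chr3:48188418-48188667, minus strand): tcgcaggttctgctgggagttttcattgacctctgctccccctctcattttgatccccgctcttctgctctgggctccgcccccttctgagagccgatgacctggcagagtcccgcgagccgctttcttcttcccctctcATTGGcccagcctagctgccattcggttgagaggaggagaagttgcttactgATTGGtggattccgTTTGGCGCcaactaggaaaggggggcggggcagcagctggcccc
RBL1 (chr20:37095998-37096247, minus strand): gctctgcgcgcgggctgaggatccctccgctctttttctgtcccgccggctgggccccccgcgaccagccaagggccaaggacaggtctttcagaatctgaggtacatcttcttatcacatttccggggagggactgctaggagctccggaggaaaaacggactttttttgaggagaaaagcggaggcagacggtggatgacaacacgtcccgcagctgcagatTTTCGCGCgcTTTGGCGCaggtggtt
CCNE1 (chr19:29811741-29811990, plus strand): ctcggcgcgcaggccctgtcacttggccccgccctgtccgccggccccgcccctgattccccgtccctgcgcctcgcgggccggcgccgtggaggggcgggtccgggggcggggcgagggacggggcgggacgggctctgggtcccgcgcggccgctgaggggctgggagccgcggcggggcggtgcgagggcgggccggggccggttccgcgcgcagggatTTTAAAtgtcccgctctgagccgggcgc
CKS1B (chr1:154974431-154974680, plus strand): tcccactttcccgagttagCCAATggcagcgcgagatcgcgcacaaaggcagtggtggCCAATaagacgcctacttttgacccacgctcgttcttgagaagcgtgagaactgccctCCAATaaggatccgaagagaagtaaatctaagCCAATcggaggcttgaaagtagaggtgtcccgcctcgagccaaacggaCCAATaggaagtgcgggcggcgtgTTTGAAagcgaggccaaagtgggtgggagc
CDC25A has 1 E2F word 44 bases before the start and 2 CCAAT boxes further up, and RBL1 has 2 E2F words, the nearer at 16 bases. CCNE1 has TTTAAA at 28 bases, and CKS1B has TTTGAA at 30 bases behind 5 CCAAT boxes. RefSeq promoters were matched for 31 of the 38 members, 48 promoters in all, and not for CCND1, CCND2, CCNE2, CDK2, CDKN1C, WEE1 and PKMYT1. Of the 48 promoters, 3 held an E2F word, 23 a CCAAT box, 15 a CHR word and 32 the GC box GGGCGG, which is not capitalised above, while 2.32%, 32.0%, 21.9% and 42.6% of 35116 promoters of the same length held them. The third promoter with an E2F word was 1 of the 2 overlapping promoters of CDK1, a gene that was not called in any comparison. A match describes the letters of the window and is not a measured site. Other spellings of these sites were not searched, so the lack of a word does not show the lack of a site.

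The time course of the Fn3nc* line shows which members moved away from their day 1 level. By day 6 the line had less mRNA for CDC25A, the phosphatase that activates CDK2, for RBL1 (p107), WEE1, CDC25C and CCNT2, with CDKN2D and RB1 near the fold threshold, and more for CCND2 and RBL2 (p130). Of 38 members, 2 rose and 7 fell by day 6, whereas 8.89 and 15.4% of all genes tested rose and fell. By day 4 there were 3 rises and 6 falls (8.04 and 15.4% of all genes) and by day 2 there were 1 and 4 (4.18 and 10.7%). CDC25A, RBL1, CDKN2D and CCNT2 had fallen, and CCND2 had risen, by day 2 already. Without Fn3nc* day 2 replicate 1 CCNT2 stood at -0.47 on day 2, under the fold threshold, and without Fn3nc* day 2 replicate 2 CCNB1 and CCNB2 joined CCND2, for 3 rises. Rises numbered 5 on day 4 without Fn3nc* day 4 replicate 1 and 4 on day 6 without Fn3nc* day 1 replicate 2, and on day 2 there were 2 without Fn3nc* day 1 replicate 1, Fn3nc* day 4 replicate 1, Fn3nc* day 4 replicate 2 or Fn3nc* day 6 replicate 1, CCNB1 being the second. From day 2 to day 6 the edgeR test called 0 members in either direction (0.645 and 2.22% of all genes), with 4 higher and 6 lower at an unadjusted p under 0.05 and 0 calls by DESeq2. In edgeR 3 members had an adjusted p under 0.05 with changes under the fold threshold. The median log2 fold change of the members by day 6 was 0.028, and that of all genes 0. In bulk RNA, a change in the share of cells in a phase of the cycle and a change of mRNA per cell cannot be told apart.

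In the WT line, by day 6, the inhibitor gene CDKN1C, CKS1B and CCND2 had risen, and CCNE1, CCNE2 and CDKN2B had fallen, with RB1 at the threshold and CCND2 and RB1 called in both lines. The counts were 3 rises and 4 falls by day 6 (13.2 and 8.04% of all genes), and 2 rises, CCND2 and CDKN1C, with 0 falls by day 4 (5.13 and 1.87%), where 9 members were lower at an unadjusted p under 0.05 and DESeq2 called 0 lower. In edgeR 9 members, the 2 called rises among them, had an adjusted p under 0.05 on day 4. By day 2 edgeR and DESeq2 called 0 members (0.0264 and 0.275% of all genes), and 1 was higher and 0 were lower at an unadjusted p under 0.05. Counted from day 2, 2 members, CDKN1C and CKS1B, had risen by day 6 and 4, CCNE1, CCNE2, CDKN2B and RB1, had fallen (13.1 and 7.65%). Without WT day 1 replicate 2, 7 members had fallen by day 6 from day 1, the further ones being CCNA2, CCNB1 and CDKN2C, and by day 4 only CCND2 was called without WT day 1 replicate 1, WT day 6 replicate 1 or WT day 6 replicate 2. The median log2 fold change of the members by day 6 was -0.087, against -0.015 for all genes.

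**Figure D1:**
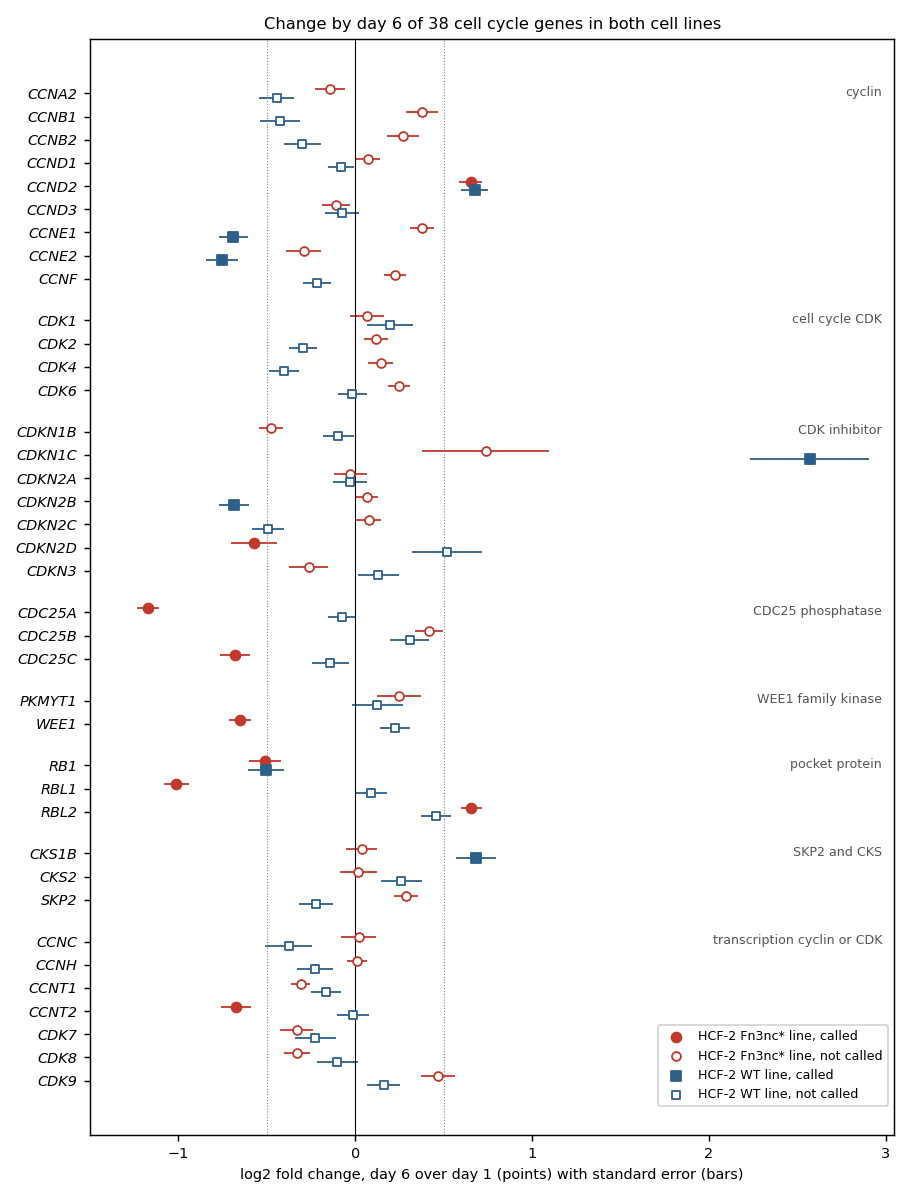
Log2 fold change from day 1 to day 6 (x axis) of the 38 members, grouped by role (y axis), in the Fn3nc* line (circles) and the WT line (squares), with standard errors from edgeR. Filled marks passed the test and dotted lines stand at 0.5 and -0.5. CDC25A and RBL1 lie furthest left, in the Fn3nc* line, and CDKN1C furthest right, in the WT line.

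Between the lines, the Fn3nc* cells had less CCND1 and CCND2 mRNA and more RB1 mRNA than the WT cells on each of the 4 days. On day 1, 8 members were higher and 6 lower in the Fn3nc* line (18.7 and 15.5% of all genes), on day 2 they were 5 and 5 (9.08 and 7.57%), on day 4 they were 3 and 2 (10.1 and 12.1%) and on day 6 they were 6 and 6 (13.2 and 16.8%). The 8 libraries of the Fn3nc* line lay above the 8 of the WT line for 5 members (CDKN1B, CDKN2B, CDKN2C, CDKN3 and RB1) and below them for 2 (CCND1 and CCND2), as did 7.22 and 8.04% of all genes. CDC25A, RBL1, WEE1, CCNT2 and CDKN2D were higher in the Fn3nc* line on day 1, and CCNB1 and CDK4 lower, and these 7 genes did not pass the test on days 2, 4 and 6. Counts on day 4 depended on single libraries: RB1 stood just under the fold threshold, at 0.50, without WT day 4 replicate 2, when 6 members were lower, 4 were lower without Fn3nc* day 4 replicate 2, and 5 were higher without Fn3nc* day 4 replicate 1.

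**Figure D2:**
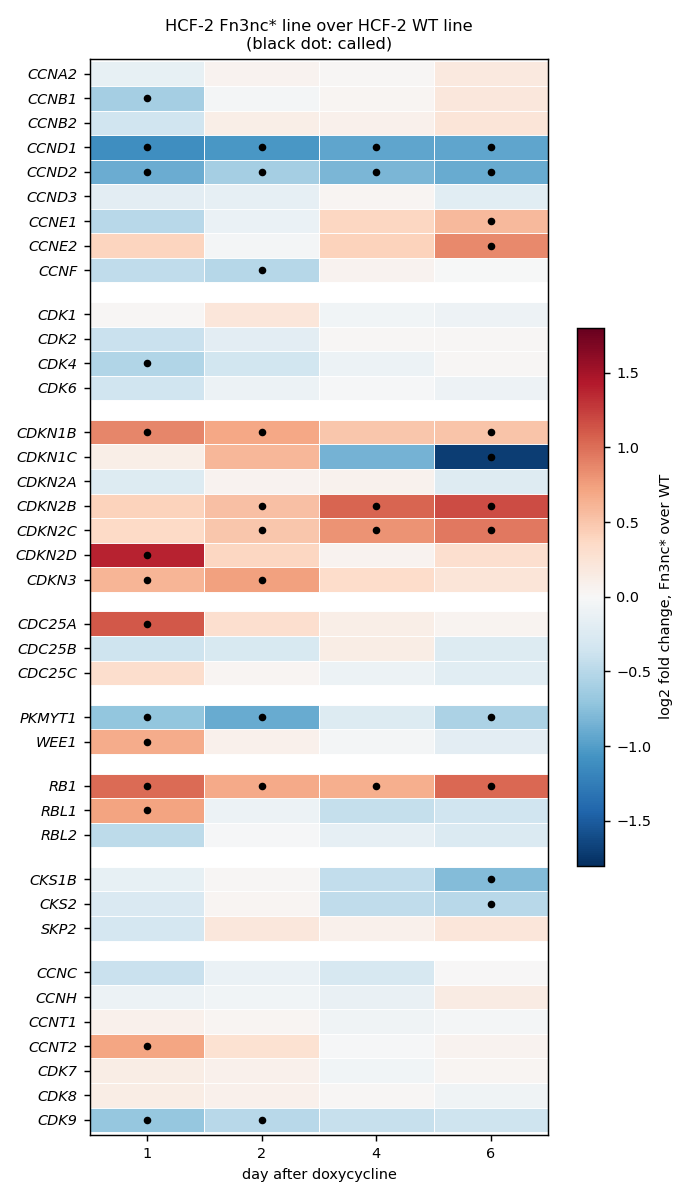
Log2 fold change of the Fn3nc* line over the WT line (colour) for the 38 members (rows) on days 1, 2, 4 and 6 (columns), with a dot where the difference passed the test. CCND1, CCND2 and RB1 carry a dot in each column, and CDC25A, RBL1 and WEE1 on day 1 alone.

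Whether a member's change by day 6 differed between the lines was tested as the difference of the 2 responses (Fn3nc* minus WT), called at an adjusted p under 0.05. From day 1, 11 members were higher and 9 lower by this measure (16.1 and 20.0% of all genes), and from day 2 they were 6 and 6 (10.3 and 13.9%). The largest positive difference from day 1 was that of CCNE1 at 1.08 ± 0.097 (adjusted p = 8.73e-07, edgeR) and the largest negative ones were those of CDKN1C at -1.82, RBL1 at -1.09, CDC25A at -1.08 and CDKN2D at -1.08. The value of CDKN1C rests on 9 to 97 counts in a library, and the gene entered the test through groups where it was high. With day 2 as the start, CCNE1 still differed at 0.70 ± 0.096 (adjusted p = 0.000119, edgeR), while RBL1 stood at -0.25 (adjusted p = 0.105) and CDKN2D at -0.082 (adjusted p = 0.85). The 6 members with a lower response from day 2 were CDKN1C, CKS1B, CKS2, CDKN3, CCND2 and CDC25A. They numbered 2 without WT day 2 replicate 1, Fn3nc* day 2 replicate 1 or Fn3nc* day 6 replicate 1, and 3 without WT day 6 replicate 2 or Fn3nc* day 6 replicate 2.

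D-type cyclins carry growth signals to CDK4 and CDK6. CCND1, the gene of cyclin D1 (chr11:69455924-69469242 of GRCh37, plus strand), measured 64.1 and 62.7 CPM on day 1, 73.6 and 72.0 CPM on day 2, 71.6 and 68.4 CPM on day 4 and 71.8 and 64.7 CPM on day 6 in the Fn3nc* line. WT libraries gave CCND1 135 and 141 CPM on day 1, 154 and 148 CPM on day 2, 133 and 136 CPM on day 4 and 132 and 133 CPM on day 6. The 2 lines did not overlap on any day, and by day 6 the log2 fold change from day 1 was 0.071 in the Fn3nc* line and -0.080 in the WT line. On day 1 the difference was -1.12 ± 0.064 (adjusted p = 2.63e-09, edgeR) and on day 6 it was -0.95 ± 0.065 (adjusted p = 3.02e-08, edgeR). CCND2, the gene of cyclin D2 (chr12:4378937-4414519 of GRCh37, plus strand), measured 192 and 194 CPM on day 1, 313 and 283 CPM on day 2, 299 and 319.5 CPM on day 4 and 311 and 311 CPM on day 6 in the Fn3nc* line. WT libraries gave CCND2 351 and 368 CPM on day 1, 452 and 455 CPM on day 2, 558 and 537 CPM on day 4 and 569 and 597 CPM on day 6. It rose in both lines, most of the way by day 2 in the Fn3nc* line and by day 4 in the WT line, and stayed lower in the Fn3nc* line throughout. Its log2 fold change by day 6 was 0.65 ± 0.066 (adjusted p = 2.69e-05, edgeR) in the Fn3nc* line and 0.68 ± 0.077 (adjusted p = 7.89e-05, edgeR) in the WT line, and the responses differed by -0.0076 (adjusted p = 0.981). CCND3 did not pass the test in any comparison, with means of 37.7 CPM on day 6 in the Fn3nc* line and 43.4 CPM in the WT line. Summed per transcript length, the 3 genes held 75.3 to 76.7 FPKM on day 1 in the Fn3nc* line, against 119.8 to 127 FPKM in the WT line, and 98.9 to 99.9 against 147 to 156 FPKM on day 6. CCND3 made up 31.4 to 31.6% of that sum on day 1 in the Fn3nc* line and 18.6 to 20.7% in the WT line.

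**Figure D3:**
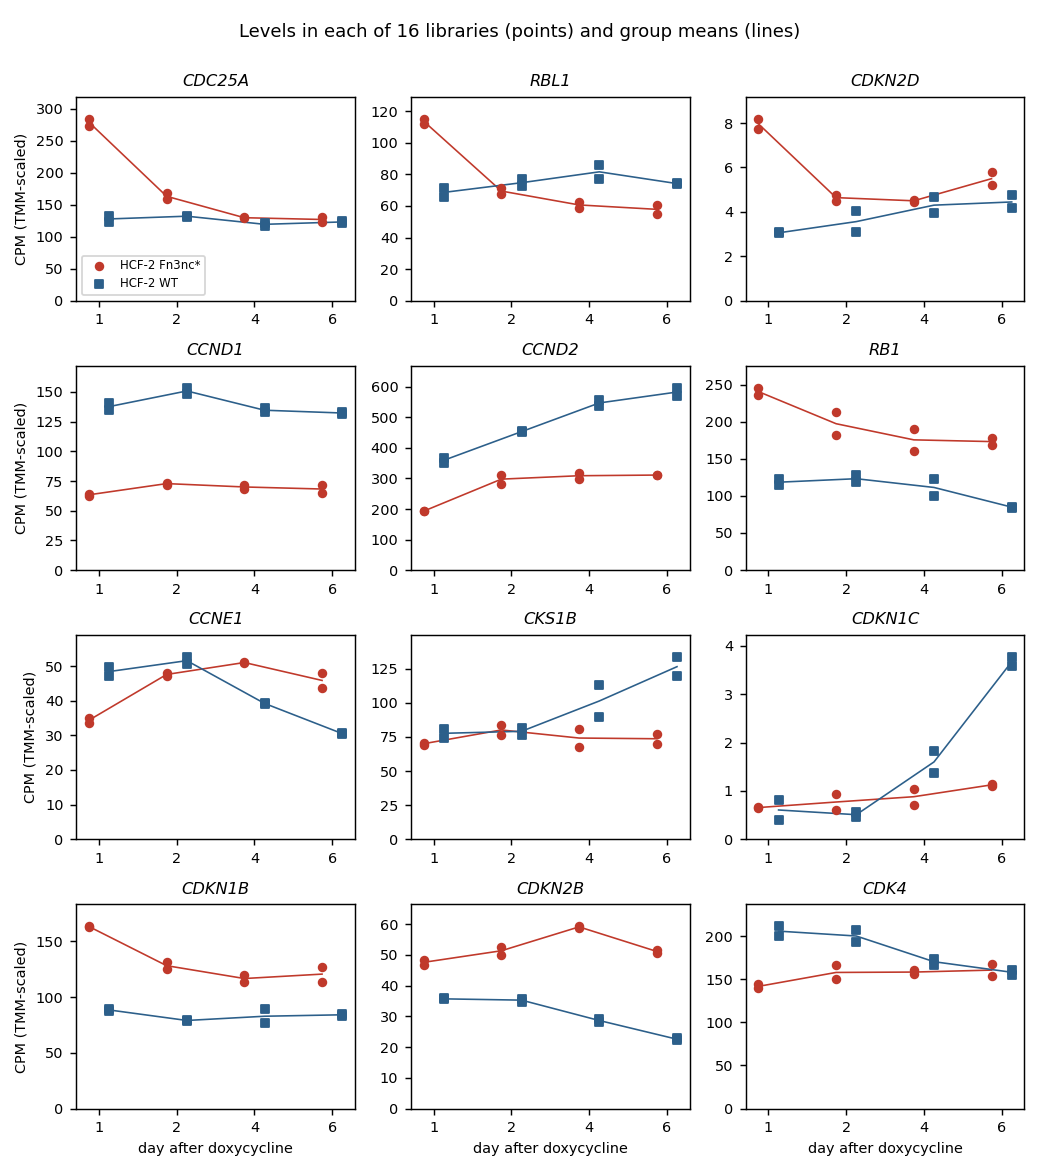
CPM (y axis, from 0) in each library (points) by day (x axis, evenly spaced days 1, 2, 4 and 6) for 12 members, with lines through the means of 2 libraries, in the Fn3nc* line (circles) and the WT line (squares). CDC25A, RBL1 and CDKN2D stood apart on day 1 of the Fn3nc* line, CCND1, CCND2 and RB1 differed between the lines on all days, and CKS1B and CDKN1C climbed in the WT line.

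E-type cyclins activate CDK2 at the entry into S phase. CCNE1 (chr19:30302898-30315219 of GRCh37, plus strand) measured 33.7 and 35.1 CPM on day 1, 48.1 and 47.1 CPM on day 2, 50.9 and 51.2 CPM on day 4 and 47.9 and 43.7 CPM on day 6 in the Fn3nc* line. WT libraries gave CCNE1 49.7 and 47.1 CPM on day 1, 52.6 and 50.5 CPM on day 2, 39.3 and 39.1 CPM on day 4 and 30.3 and 30.7 CPM on day 6. The lines crossed: the Fn3nc* libraries were the lower ones on days 1 and 2 and the higher ones on days 4 and 6. CCNE1 fell by day 6 in the WT line (log2 fold change -0.69 ± 0.083, adjusted p = 0.000104), and in the Fn3nc* line it was called higher on day 4 (0.54) with 0.38 (adjusted p = 0.00112) on day 6, under the fold threshold. On day 6 the Fn3nc* line exceeded the WT line by 0.59 ± 0.069 (adjusted p = 5.43e-06, edgeR). CCNE2 (chromosome 8) measured 57.1 and 55.6 CPM on day 1, 50.6 and 44.6 CPM on day 2, 41.9 and 51.7 CPM on day 4 and 45.2 and 49.4 CPM on day 6 in the Fn3nc* line. WT libraries gave CCNE2 43.2 and 42.6 CPM on day 1, 48.0 and 49.6 CPM on day 2, 36.8 and 33.6 CPM on day 4 and 26.8 and 24.9 CPM on day 6. It fell in the WT line by day 6 (log2 fold change -0.75 ± 0.091, adjusted p = 0.000113) and stood under the fold threshold in the Fn3nc* line (-0.29, adjusted p = 0.0354), which ended 0.87 ± 0.10 (adjusted p = 4.37e-06, edgeR) above the WT line. The difference of the CCNE2 responses from day 1, 0.48 (adjusted p = 0.0136), was not called without WT day 6 replicate 2 (adjusted p = 0.0549) or Fn3nc* day 6 replicate 2 (0.0599). In a later annotation than the one used for counting, exons of CCNE2 overlap 1629 exonic bases of INTS8 on the other strand. INTS8 had 195% of the counts of CCNE2, and the sources used here do not say whether counting used strand. The sum of the E-type genes on day 6 was 55.2 to 62.1 FPKM in the Fn3nc* line and 34.1 to 34.7 FPKM in the WT line.

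Cyclins A2, B1, B2 and F rise towards mitosis. CCNB1 (chr5:68462962-68474072 of GRCh37, plus strand), the partner of CDK1, measured 197 and 184 CPM on day 1, 291 and 249 CPM on day 2, 243 and 276 CPM on day 4 and 245 and 263 CPM on day 6 in the Fn3nc* line. WT libraries gave CCNB1 312 and 272 CPM on day 1, 265 and 290.2 CPM on day 2, 280.1 and 227 CPM on day 4 and 212 and 230.5 CPM on day 6. Day 1 of the Fn3nc* line was the lowest group and lay -0.62 ± 0.11 (adjusted p = 0.000217, edgeR) from the WT line, while the lines overlapped on days 2 and 4. By day 6 CCNB1 stood at 0.38 (adjusted p = 0.00565) in the Fn3nc* line and -0.43 (adjusted p = 0.0131) in the WT line, each under the fold threshold, and the responses differed by 0.82 ± 0.15 (adjusted p = 0.000748, edgeR). CCNA2 (chr4:122737599-122745038 of GRCh37, minus strand), the cyclin of S phase and G2, measured 156 and 155 CPM on day 1, 171 and 145 CPM on day 2, 136 and 152 CPM on day 4 and 140.3 and 149 CPM on day 6 in the Fn3nc* line. WT libraries gave CCNA2 181 and 163 CPM on day 1, 146 and 157 CPM on day 2, 153 and 131 CPM on day 4 and 131 and 126 CPM on day 6. Its largest change was -0.44 (adjusted p = 0.0048) by day 6 in the WT line, which passed the adjusted p and not the fold threshold, and without WT day 1 replicate 2 CCNA2 (-0.50) and CCNB1 (-0.51) were called. CCNB2 had a log2 fold change by day 6 of 0.27 in the Fn3nc* line and -0.30 in the WT line, a difference of 0.58 ± 0.15 (adjusted p = 0.00621, edgeR). CCNF, the F-box protein cyclin F, had 0.23 and -0.21 for the Fn3nc* and WT lines and a difference of 0.46 ± 0.092 (adjusted p = 0.00119, edgeR). Of the 9 cyclins of the cycle, 5 (CCNB1, CCNB2, CCNE1, CCNE2 and CCNF) had a day 6 response that was more positive in the Fn3nc* line, and the median difference over the 9 was 0.46, against 0 for all genes, of which 16.1% had a more positive response. From day 2 to day 6 the counts were 3 more positive and 1 more negative (10.3 and 13.9% of all genes), with a median of 0.12.

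By day 6 the log2 fold changes of the 4 CDKs of the cycle lay between 0.069 and 0.25 in the Fn3nc* line and between -0.40 and 0.20 in the WT line. CDK1 (chr10:62538089-62554610 of GRCh37, plus strand), the kinase of mitosis, measured 291 and 280.1 CPM on day 1, 358 and 305 CPM on day 2, 297 and 322 CPM on day 4 and 281 and 334 CPM on day 6 in the Fn3nc* line. WT libraries gave CDK1 303 and 259.6 CPM on day 1, 261 and 309 CPM on day 2, 365 and 283 CPM on day 4 and 322 and 333 CPM on day 6. The ranges of the lines overlapped, and adjusted p-values by day 6 were 0.608 in the Fn3nc* line and 0.271 in the WT line. CDK4 (chr12:58141510-58149796 of GRCh37, minus strand) measured 139.7 and 144 CPM on day 1, 166 and 150.0 CPM on day 2, 156 and 161 CPM on day 4 and 154 and 168 CPM on day 6 in the Fn3nc* line. WT libraries gave CDK4 200.4 and 212 CPM on day 1, 193 and 208 CPM on day 2, 174 and 167 CPM on day 4 and 155 and 161 CPM on day 6. It was lower in the Fn3nc* line on day 1, at -0.54 ± 0.072 (adjusted p = 1.44e-05, edgeR), and on day 6 the lines stood 0.023 apart (adjusted p = 0.83). From day 1 to day 6 CDK4 stood at 0.14 in the Fn3nc* line and -0.40 in the WT line, a difference of 0.56 ± 0.10 (adjusted p = 0.000531, edgeR). Exons of CDK4 overlap 1369 exonic bases of TSPAN31 on the other strand, a gene with 23.9% of its counts. CDK6 (chr7:92234235-92465887 of GRCh37, minus strand), the other partner of D-type cyclins, measured 191 and 193 CPM on day 1, 256 and 239.7 CPM on day 2, 239.7 and 260.2 CPM on day 4 and 234 and 233 CPM on day 6 in the Fn3nc* line. WT libraries gave CDK6 247 and 246 CPM on day 1, 259 and 274 CPM on day 2, 265 and 241 CPM on day 4 and 251 and 245 CPM on day 6. Day 1 of the Fn3nc* line was the lowest group, at -0.36 from the WT line (adjusted p = 0.000366, edgeR), under the fold threshold. The Fn3nc* day 6 pair also lay below each WT library, of which the lowest had 240.7 CPM. CDK6 had the weakest of the differing responses, 0.28 (adjusted p = 0.0363), and it was called in none of the 8 fits that each left out 1 of the day 1 and day 6 libraries (adjusted p up to 0.101). CDK2, the kinase of cyclins E and A, averaged 117 CPM on day 6 in the Fn3nc* line and 115 CPM in the WT line, and its response differed by 0.43 (adjusted p = 0.00301). Per transcript length CDK4 exceeded CDK6 in each library and held 88.0 to 88.2% of their joint FPKM on day 6 in the Fn3nc* line and 86.7 to 87.2% in the WT line.

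Of the 2 CIP/KIP inhibitors among the members, CDKN1B, the gene of p27, differed between the lines, and CDKN1C, the gene of p57, changed with time in the WT line. CDKN1A, the gene of p21 and the other member of the family, is counted with the further pathway genes, and its response by day 6, Fn3nc* minus WT, was -2.26 (adjusted p = 5.43e-09). CDKN1B (chr12:12838432-12875303 of GRCh37, plus strand) measured 163 and 163 CPM on day 1, 131 and 125 CPM on day 2, 113 and 120.2 CPM on day 4 and 114 and 127 CPM on day 6 in the Fn3nc* line. WT libraries gave CDKN1B 89.3 and 87.6 CPM on day 1, 79.1 and 78.8 CPM on day 2, 89.3 and 76.3 CPM on day 4 and 85.2 and 83.0 CPM on day 6. The highest libraries were those of Fn3nc* day 1, and each Fn3nc* library lay above each WT library. The difference was 0.88 ± 0.077 (adjusted p = 1.85e-07, edgeR) on day 1 and 0.52 ± 0.077 (adjusted p = 5.39e-05, edgeR) on day 6, where it was 0.48 without WT day 6 replicate 2 and 0.44 without Fn3nc* day 6 replicate 2, under the fold threshold. Its fall by day 4 in the Fn3nc* line, -0.52 (adjusted p = 0.000149), was likewise under it without Fn3nc* day 2 replicate 2 (-0.49), Fn3nc* day 4 replicate 1 (-0.46) or Fn3nc* day 6 replicate 1 (-0.49). CDKN1C (chr11:2904443-2907005 of GRCh37, minus strand), a growth-restraining inhibitor of embryonic tissues that is expressed from the maternal copy, measured 0.64 and 0.67 CPM on day 1, 0.60 and 0.95 CPM on day 2, 0.71 and 1.05 CPM on day 4 and 1.14 and 1.11 CPM on day 6 in the Fn3nc* line. WT libraries gave CDKN1C 0.40 and 0.82 CPM on day 1, 0.46 and 0.56 CPM on day 2, 1.37 and 1.83 CPM on day 4 and 3.77 and 3.57 CPM on day 6. These are small counts, 9 to 97 in a library, and day 6 of the WT line stood above the 14 other libraries. CDKN1C rose there by day 6 (log2 fold change 2.57 ± 0.34, adjusted p = 0.000185), while its log2 fold change was 0.74 (adjusted p = 0.125) in the Fn3nc* line, which ended -1.70 ± 0.31 (adjusted p = 0.00033, edgeR) from the WT line. It passed the FPKM filter only through the libraries of WT days 4 and 6 and 1 of Fn3nc* day 6, so it entered the test through groups where it was high. With no FPKM filter, which let 42969 genes into the fit in place of 18925, its change by day 6 in the WT line was 2.54. The adjusted p of that edgeR fit, 3.04e-11, rests on the same libraries and small counts and adds no evidence. A filter on all libraries removed CDKN1C. Its rise by day 4 in the WT line (1.41, adjusted p = 0.0253) was not called without WT day 1 replicate 1 (adjusted p = 0.177), WT day 4 replicate 2 (0.0783), WT day 6 replicate 1 (0.0526) or WT day 6 replicate 2 (0.0505). The difference of the responses by day 6, -1.82 ± 0.49 (adjusted p = 0.00905, edgeR), had an adjusted p of 0.0508 without WT day 1 replicate 1. Per transcript length, with CDKN1A left out, CDKN1C stayed a minor part beside CDKN1B, at 1.74 to 2.11% of their sum on day 6 in the Fn3nc* line and 7.84 to 8.20% in the WT line.

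Of the INK4 inhibitors, CDKN2B (p15) and CDKN2C (p18) diverged between the lines as the days passed. CDKN2B (chr9:22002902-22009304 of GRCh37, minus strand) measured 46.7 and 48.4 CPM on day 1, 50.1 and 52.6 CPM on day 2, 59.3 and 58.9 CPM on day 4 and 51.5 and 50.7 CPM on day 6 in the Fn3nc* line. WT libraries gave CDKN2B 35.9 and 35.5 CPM on day 1, 35.8 and 34.7 CPM on day 2, 28.3 and 29.0 CPM on day 4 and 22.9 and 22.2 CPM on day 6. It fell in the WT line by day 6 (log2 fold change -0.68 ± 0.085, adjusted p = 0.000132) and stood at 0.067 (adjusted p = 0.424) in the Fn3nc* line, and the responses differed by 0.77 ± 0.091 (adjusted p = 1.33e-05, edgeR). The gap between the lines was 0.41 on day 1, 0.54 on day 2, 1.04 on day 4 and 1.18 ± 0.066 (adjusted p = 6.04e-09, edgeR) on day 6, called from day 2 on. CDKN2C (chr1:51426417-51440306 of GRCh37, plus strand) measured 57.9 and 56.9 CPM on day 1, 63.8 and 61.2 CPM on day 2, 56.7 and 65.0 CPM on day 4 and 61.0 and 63.1 CPM on day 6 in the Fn3nc* line. WT libraries gave CDKN2C 47.0 and 42.0 CPM on day 1, 42.7 and 45.6 CPM on day 2, 34.5 and 35.4 CPM on day 4 and 32.4 and 31.8 CPM on day 6. In the WT line it stood at -0.49 (adjusted p = 0.00152) by day 6, under the fold threshold except without WT day 1 replicate 2 (-0.56) or WT day 6 replicate 1 (-0.51), and the lines ended at a gap of 0.95 ± 0.080 (adjusted p = 2.21e-07, edgeR) on day 6. The gap on day 2, 0.50, was under the fold threshold without WT day 2 replicate 1 (0.45) or Fn3nc* day 2 replicate 1 (0.47). CDKN2D (chr19:10677136-10679735 of GRCh37, minus strand), the gene of p19, measured 7.73 and 8.20 CPM on day 1, 4.51 and 4.77 CPM on day 2, 4.55 and 4.45 CPM on day 4 and 5.20 and 5.79 CPM on day 6 in the Fn3nc* line. WT libraries gave CDKN2D 3.03 and 3.08 CPM on day 1, 3.11 and 4.02 CPM on day 2, 3.94 and 4.67 CPM on day 4 and 4.74 and 4.16 CPM on day 6. Day 1 of the Fn3nc* line was the highest group and day 1 of the WT line the lowest, 1.38 ± 0.16 (adjusted p = 2.94e-06, edgeR) apart. By day 6 it had fallen in the Fn3nc* line (log2 fold change -0.57 ± 0.13, adjusted p = 0.00454), under the fold threshold without Fn3nc* day 6 replicate 1 (-0.47), and stood at 0.52 (adjusted p = 0.0595) in the WT line, where it passed the test without WT day 4 replicate 1 or WT day 4 replicate 2 (adjusted p = 0.0459 and 0.0407). CDKN2A, the gene of p16 and ARF, was the most abundant INK4 gene per transcript length and was not called in any comparison, with means of 73.2 CPM on day 6 in the Fn3nc* line and 86.1 CPM in the WT line. Counts per gene do not separate its p16 transcripts from those of ARF, so its share of the INK4 sum holds both. The share of CDKN2A was 60.6 to 63.2% on day 6, against 60.7 to 63.7% on day 1, in the Fn3nc* line, and 78.6 to 81.3% on day 6, against 71.5 to 74.6% on day 1, in the WT line. CDKN3, a phosphatase that acts on CDK1 and CDK2, was higher in the Fn3nc* line on day 1 (0.61) and day 2 (0.74), and on day 6 it stood at 0.23 (adjusted p = 0.124).

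The CDC25 phosphatases and the WEE1 family set the inhibitory phosphates of CDK1 and CDK2. CDC25A (chr3:48198636-48229907 of GRCh37, minus strand), measured 285 and 273 CPM on day 1, 168 and 159 CPM on day 2, 129 and 131 CPM on day 4 and 124 and 130.5 CPM on day 6 in the Fn3nc* line. WT libraries gave CDC25A 132 and 124 CPM on day 1, 131 and 133 CPM on day 2, 122 and 117 CPM on day 4 and 121 and 125 CPM on day 6. Only the Fn3nc* day 1 and day 2 pairs lay above the WT range, and on days 4 and 6 the Fn3nc* libraries lay within it. The log2 fold change from day 1 was -0.79 ± 0.061 (adjusted p = 1.7e-05, edgeR) on day 2 and -1.17 ± 0.061 (adjusted p = 4.03e-07, edgeR) on day 6 in the Fn3nc* line, and -0.076 (adjusted p = 0.498) on day 6 in the WT line. CDC25C (chr5:137620958-137674044 of GRCh37, minus strand), which acts on CDK1 at the entry into mitosis, measured 43.99 and 45.8 CPM on day 1, 33.0 and 34.3 CPM on day 2, 29.9 and 32.4 CPM on day 4 and 26.4 and 31.1 CPM on day 6 in the Fn3nc* line. WT libraries gave CDC25C 38.3 and 33.6 CPM on day 1, 31.1 and 34.2 CPM on day 2, 35.7 and 31.2 CPM on day 4 and 33.7 and 32.5 CPM on day 6. It fell by day 6 in the Fn3nc* line (log2 fold change -0.68 ± 0.085, adjusted p = 0.000108) and stood at -0.14 in the WT line. Its exons overlap 293 exonic bases of FAM53C on the other strand, a gene with 394% of its counts. CDC25B, a further activator of CDK1, stood at 0.42 (adjusted p = 0.00155) in the Fn3nc* line and 0.31 (adjusted p = 0.0437) in the WT line, under the fold threshold in both. CDC25A held 46.5 to 46.8% of the family's FPKM on day 6, against 63.8 to 67.1% on day 1, in the Fn3nc* line, and 43.1 to 43.4% on day 6, against 44.5 to 48.2% on day 1, in the WT line. WEE1 (chr11:9595217-9615004 of GRCh37, plus strand), the kinase that CDC25 opposes, measured 110.2 and 109 CPM on day 1, 79.9 and 85.2 CPM on day 2, 83.8 and 79.1 CPM on day 4 and 71.9 and 71.6 CPM on day 6 in the Fn3nc* line. WT libraries gave WEE1 71.9 and 65.9 CPM on day 1, 79.5 and 75.0 CPM on day 2, 85.1 and 81.9 CPM on day 4 and 77.6 and 86.3 CPM on day 6. Like CDC25A it was highest on day 1 of the Fn3nc* line and fell there by day 6 (log2 fold change -0.65 ± 0.062, adjusted p = 1.94e-05), while it stood at 0.23 (adjusted p = 0.059) in the WT line. PKMYT1, the membrane-bound kinase of the family, was lower in the Fn3nc* line on day 1 (-0.71), day 2 (-0.91) and day 6 (-0.57, adjusted p = 0.00657), the last not without WT day 6 replicate 2 (adjusted p = 0.0967). Exons of PKMYT1 overlap 1228 exonic bases of PAQR4 on the other strand, a gene with 87.0% of its counts.

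The pocket proteins bind E2F factors until CDKs release them, and the proportions of their mRNAs differed between days in both lines. RB1 (chr13:48877880-49173572 of GRCh37, plus strand) measured 246 and 235 CPM on day 1, 212 and 182 CPM on day 2, 161 and 189.8 CPM on day 4 and 168 and 178 CPM on day 6 in the Fn3nc* line. WT libraries gave RB1 123 and 114 CPM on day 1, 118 and 128 CPM on day 2, 123 and 100.04 CPM on day 4 and 85.3 and 84.2 CPM on day 6. The Fn3nc* libraries were the higher ones on each day, by 1.02 ± 0.10 (adjusted p = 8.11e-07, edgeR) on day 1 and 1.03 ± 0.10 (adjusted p = 1.31e-06, edgeR) on day 6, with 0.66 on day 4, or 0.50, just under the threshold, without WT day 4 replicate 2. By day 6 RB1 was at the fold threshold in both lines, at -0.51 ± 0.091 (adjusted p = 0.0011, edgeR) in the Fn3nc* line and -0.50 ± 0.10 (adjusted p = 0.00297, edgeR) in the WT line. It passed under that threshold without Fn3nc* day 1 replicate 1 (-0.48), Fn3nc* day 2 replicate 2 (-0.48), Fn3nc* day 4 replicate 1 (-0.48), Fn3nc* day 4 replicate 2 (-0.48) or Fn3nc* day 6 replicate 1 (-0.45), and in the WT line without WT day 1 replicate 1 (-0.45), WT day 2 replicate 1 (-0.49), WT day 4 replicate 2 (-0.49) or WT day 6 replicate 2 (-0.49). RBL1 (chr20:35624752-35724400 of GRCh37, minus strand), the gene of p107, measured 115 and 112 CPM on day 1, 67.7 and 71.1 CPM on day 2, 58.8 and 62.5 CPM on day 4 and 55.0 and 60.7 CPM on day 6 in the Fn3nc* line. WT libraries gave RBL1 71.5 and 65.5 CPM on day 1, 72.4 and 76.9 CPM on day 2, 86.1 and 77.0 CPM on day 4 and 74.3 and 73.9 CPM on day 6. Fn3nc* day 1 exceeded each other group, and from day 2 on the Fn3nc* libraries were the lower ones, with -0.43 on day 4, called only without WT day 4 replicate 2 (-0.53), and -0.36 on day 6. RBL1 fell by day 6 in the Fn3nc* line (log2 fold change -1.01 ± 0.068, adjusted p = 1.93e-06), the WT line stood at 0.091 (adjusted p = 0.467), and the responses differed by -1.09 ± 0.11 (adjusted p = 2.15e-06, edgeR). RBL2 (chr16:53467889-53525560 of GRCh37, plus strand), the gene of p130, which binds E2F4 and E2F5 in quiescent cells, measured 51.3 and 50.2 CPM on day 1, 70.9 and 71.4 CPM on day 2, 82.3 and 83.4 CPM on day 4 and 79.4 and 84.5 CPM on day 6 in the Fn3nc* line. WT libraries gave RBL2 71.8 and 69.2 CPM on day 1, 69.6 and 74.2 CPM on day 2, 97.7 and 88.2 CPM on day 4 and 94.6 and 102 CPM on day 6. It rose by day 6 in the Fn3nc* line (log2 fold change 0.66 ± 0.059, adjusted p = 1.32e-05) and had 0.46 (adjusted p = 0.00172) in the WT line, under the fold threshold except without WT day 6 replicate 1 (0.51), and the responses differed by 0.21 (adjusted p = 0.104). Exons of RBL2 overlap 609 exonic bases of AKTIP on the other strand, a gene with 25.5% of its counts. Per transcript length, RB1 made up 49.4 to 50.4% of the family on day 6, against 53.3 to 54.5% on day 1, in the Fn3nc* line, and 29.0 to 29.6% on day 6, against 41.0 to 41.5% on day 1, in the WT line. For RBL2 the share was 29.6 to 29.9% on day 6, against 15.1 to 15.9% on day 1, in the Fn3nc* line, and 39.0 to 42.7% on day 6, against 29.1 to 31.9% on day 1, in the WT line.

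**Figure D4:**
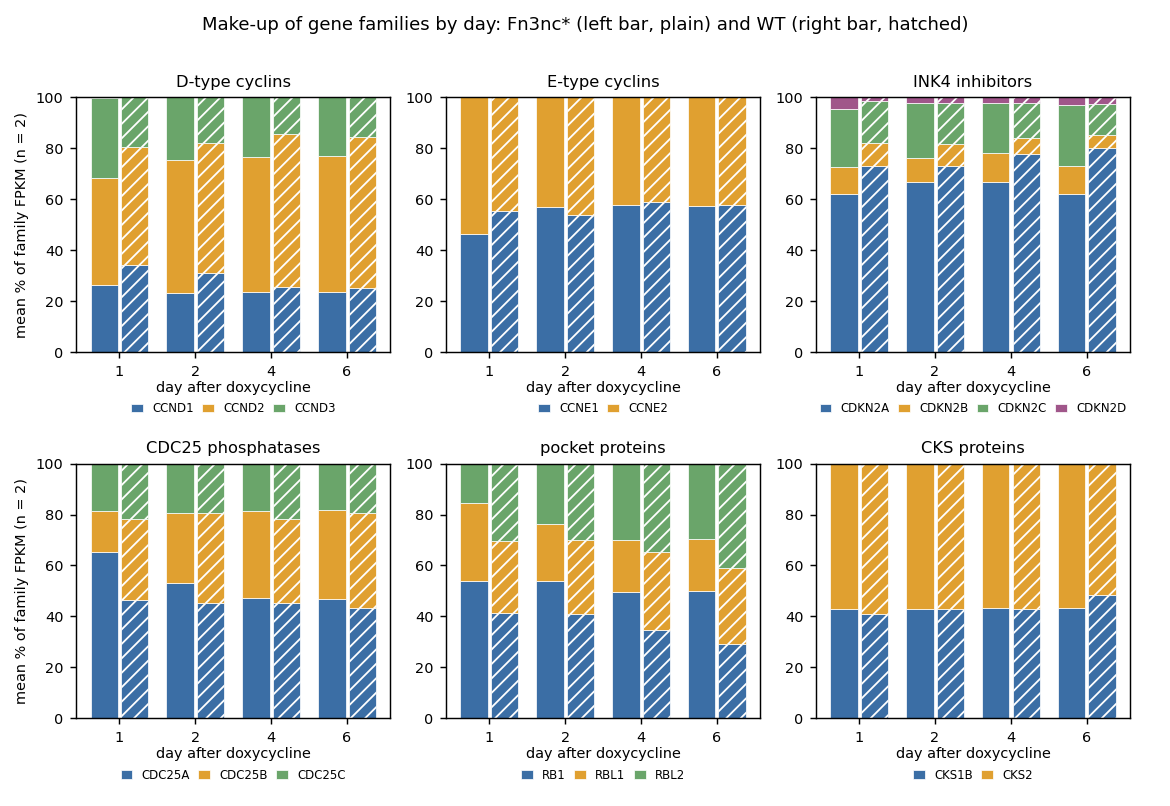
Share of each gene in the summed FPKM of its family (y axis, mean of 2 libraries) by day (x axis) for 6 families, in the Fn3nc* line (left, plain bars) and the WT line (right, hatched bars). CDC25A takes its largest share on day 1 of the Fn3nc* line and RBL2 on day 6 of the WT line, and the share of RB1 is larger in the Fn3nc* line on each day.

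SKP2 with CKS1B directs p27 to degradation, and CKS1B and CKS2 are small partners of the CDKs. CKS1B (chr1:154947129-154951727 of GRCh37, plus strand) measured 70.7 and 69.5 CPM on day 1, 83.9 and 76.4 CPM on day 2, 67.7 and 80.7 CPM on day 4 and 70.1 and 77.3 CPM on day 6 in the Fn3nc* line. WT libraries gave CKS1B 80.8 and 74.6 CPM on day 1, 76.6 and 81.7 CPM on day 2, 113 and 89.4 CPM on day 4 and 119 and 134 CPM on day 6. It climbed in the WT line after day 2, where both day 6 libraries lay above all others (log2 fold change 0.68 ± 0.11, adjusted p = 0.000827), and stood at 0.036 (adjusted p = 0.783) in the Fn3nc* line. On day 6 the lines were -0.78 ± 0.11 (adjusted p = 3.07e-05, edgeR) apart. CKS2 averaged 72.7 CPM on day 6 in the Fn3nc* line and 103 CPM in the WT line, a difference of -0.50 ± 0.12 (adjusted p = 0.00288, edgeR) that was under the fold threshold without WT day 6 replicate 1 (-0.47) or Fn3nc* day 6 replicate 1 (-0.45). SKP2 had a log2 fold change by day 6 of 0.29 in the Fn3nc* line and -0.22 in the WT line, a difference of 0.52 ± 0.12 (adjusted p = 0.00225, edgeR). The 2 CKS genes encode closely similar proteins, and how RSEM divided reads between them and related sequences was not tested.

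Of the 7 cyclins and CDKs of transcription, CCNT2 had the largest log2 fold change by day 6 in the Fn3nc* line and CCNC, at -0.38 (adjusted p = 0.0439), in the WT line. CCNT2 (chr2:135675805-135716912 of GRCh37, plus strand), a cyclin of the elongation kinase CDK9, measured 96.3 and 93.7 CPM on day 1, 61.2 and 69.2 CPM on day 2, 61.7 and 59.3 CPM on day 4 and 65.6 and 56.3 CPM on day 6 in the Fn3nc* line. WT libraries gave CCNT2 60.4 and 55.4 CPM on day 1, 53.9 and 53.8 CPM on day 2, 62.4 and 60.5 CPM on day 4 and 61.9 and 54.5 CPM on day 6. It was high on day 1 of the Fn3nc* line alone, at 0.71 ± 0.086 (adjusted p = 5.13e-06, edgeR) from the WT line, and fell there by day 6 (log2 fold change -0.68 ± 0.086, adjusted p = 0.000121). CDK9 was lower in the Fn3nc* line on day 1, at -0.70 ± 0.092 (adjusted p = 1.28e-05, edgeR), and at the fold threshold on day 2 (-0.50), where it was -0.43 without WT day 2 replicate 1 and -0.47 without Fn3nc* day 2 replicate 1. Its mean was 23.9 CPM on day 6, against 16.9 CPM on day 1, in the Fn3nc* line, and 31.1 CPM on day 6, against 27.4 CPM on day 1, in the WT line. CCNT1, the other partner of CDK9, had -0.31 by day 6 in the Fn3nc* line and -0.16 in the WT line. Of CDK7 and CCNH, which with MNAT1 form the kinase of TFIIH that also activates CDKs, CDK7 stood at -0.33 in the Fn3nc* line and -0.23 in the WT line, and CCNH at 0.011 and -0.23. CDK8 and CCNC of the Mediator kinase module had -0.33 and 0.020 in the Fn3nc* line and -0.10 and -0.38 in the WT line. For these 5 genes each value lay under the fold threshold.

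Of 80 other genes of the pathway (further cyclins and CDKs, partners of CDK7, CDK8 and CDK9, ubiquitin ligases of the cycle, and E2F and DREAM factors), 79 were tested. By day 6, 7 rose and 22 fell in the Fn3nc* line, with a median log2 fold change of -0.12, and 5 rose and 3 fell in the WT line, with a median of -0.0065. Of all genes, 8.89% rose and 15.4% fell in the Fn3nc* line, and 13.2% rose and 8.04% fell in the WT line. The medians of all genes were 0 in the Fn3nc* line and -0.015 in the WT line. The largest called changes in the Fn3nc* line were falls of CDKN1A, the gene of p21, at -2.04 (means 27.1 CPM on day 6 and 109 CPM on day 1), of CCNL1, a cyclin of splicing, at -1.64, and of E2F2, an activating E2F, at -1.41. In the WT line the largest called changes were rises of CDK18 (1.36), CCNO (0.79) and CCNG1 (0.64), the cyclin G1 gene. From day 1 to day 6, 2 of 17 E2F and DREAM genes rose and 9 fell in the Fn3nc* line (8.89 and 15.4% of all genes). Their median was -0.55. Counted from day 2, 0 rose and 0 fell there (0.645 and 2.22% of all genes), with a median of -0.13. In the WT line 1 rose and 0 fell from day 1 (13.2 and 8.04%), with a median of 0.020. Between the lines on day 1, 7 of the 17 were higher and 2 lower in the Fn3nc* line (18.7 and 15.5%). E2F8, an atypical repressor E2F, averaged 60.3 CPM on day 1 in the Fn3nc* line and 10.0 CPM in the WT line (2.59), and the Fn3nc* line was still above the WT line on day 6 (1.39). Over the 79 genes, 22 were higher and 5 lower in the Fn3nc* line on day 1 (18.7 and 15.5% of all genes), and 8 and 8 on day 6 (13.2 and 16.8% of all genes).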

How the data were processed

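Poly(A) RNA of 16 libraries was sequenced by the authors (NEXTflex qRNA-seq kit, single-end reads), and per the labels and the study's methods reads were aligned with STAR to GRCh37 and quantified with RSEM 1.3.0. The deposited table holds RSEM expected counts and FPKM values for each library. The sources used here do not say how strand and the kit's molecular labels were handled. Beside the overlaps named above, exons of CCND1, CCNA2, SKP2 and CCNH overlap those of ORAOV1, EXOSC9, NADK2 and RASA1 on the other strand. These genes had 16.0, 54.0, 37.1 and 94.7% of the counts of the respective member. Gene positions and all exon overlaps given here come from a GENCODE release, placed on GRCh37, that is later than the annotation used for counting. Whether the overlaps hold in that earlier annotation was not tested. After rounding of the expected counts to integers, edgeR 4.0.16 tested the 18925 of 57820 genes that exceeded an FPKM of 1 in some library (quasi-likelihood test, TMM scaling, Benjamini-Hochberg adjustment over all genes tested). Each line was fitted alone for comparisons of days, as in the study, and all 16 libraries together, in 8 groups, for differences between lines and of responses. Calls needed a change of more than 0.5 on the log2 scale and an adjusted p under 0.05, or the adjusted p alone for a difference of responses. CPM used edgeR's scaled library sizes. The standard error is the log2 fold change divided by the root of F.

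Libraries held 20270033 to 31006448 expected counts. DESeq2 1.42.0 and its size factors, other FPKM filters, 1 fit of all libraries, a replicate block and leaving out each library were tried, and the script was tested on simulated data (R 4.3.3). Symbols of the 38 members stood on 40 rows, and the second rows of CKS1B and RBL1, with 0.754 and 1.46% of their symbol's counts, were not used. Members and gene lists were chosen with earlier results of these data known. Per-library values are given for the 6 called members with the largest changes by day 6 in each line and between lines on days 1 and 6, and for CCND1, CDK4, CDK6, CDKN1B, RB1, CCNB1, CDK1, CCNE1, CCNA2 and WEE1, and the 3 largest called changes are named for the pathway genes. Promoters come from RefSeq (GRCh38.p14). Python 3.11.15 and matplotlib 3.10.9 drew the figures.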

Additional observations from a re-analysis of the deposited data

Results flagged for a closer look

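For 20 members the log2 fold change from day 1 to day 6 differed between the Fn3nc* line and the WT line in the test of that difference (edgeR, adjusted p under 0.05), as did 16.1% of all genes in the positive and 20.0% in the negative direction, and the values here are Fn3nc* minus WT. The response was more positive in the Fn3nc* line for CCNE1 (1.08), CCNB1 (0.82), CDKN2B (0.77), CCNB2 (0.58), CDKN2C (0.58), CDK4 (0.56), SKP2 (0.52), CCNE2 (0.48), CCNF (0.46), CDK2 (0.43) and CDK6 (0.28). It was more negative for CDKN1C (-1.82), RBL1 (-1.09), CDC25A (-1.08), CDKN2D (-1.08), WEE1 (-0.86), CCNT2 (-0.65), CKS1B (-0.63), CDC25C (-0.53) and CDKN1B (-0.36). CDKN1C had 9 to 97 counts in a library and passed the FPKM filter through groups where it was high. The CDKN1B difference was -0.34 (adjusted p = 0.0645) without WT day 6 replicate 1 and -0.29 (adjusted p = 0.0816) without Fn3nc* day 6 replicate 1. Both lines were compared with 2 day 1 libraries each, and a difference between the lines already present on day 1 enters each of these values.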

How the results depend on the processing

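Of the values computed for members under the alternatives, 6432 kept their side of the threshold, 95 no longer passed, 68 newly passed, and no called value changed sign. Direction was not compared for values that were called in neither fit. With an FPKM above 1 required in every library, which removes CDKN1C, 1 member was called higher in the WT line on day 4 from day 1 and 1 on day 6 from day 2, and 3 were lower in the Fn3nc* line on day 2 in the comparison of lines. DESeq2 called 1 member higher on day 4 from day 1 in the WT line, a comparison in which it gave CDKN1C no adjusted p. With no FPKM filter 2 members were higher on day 2 in the Fn3nc* line. The replicate numbers did not pair the libraries (correlations of deviations -0.507 to 0.458 over 6 pairs of groups in the WT line, 1 of them above 0.1, and -0.566 to 0.416 in the Fn3nc* line, 2 above 0.1). With the replicate block, 3 members had a lower response from day 2 to day 6, 10 a higher one from day 1 and 3 were lower on day 4 in the Fn3nc* line than in the WT line, while the other counts stayed the same. With single libraries left out, counts ranged from 1 to 3 for rises by day 2, from 3 to 5 by day 4 and from 2 to 4 by day 6 in the Fn3nc* line, and in the WT line from 1 to 2 for rises by day 4 and from 3 to 7 for falls by day 6. They ranged from 2 to 5 for members higher and 2 to 6 for members lower in the Fn3nc* line on day 4, and from 2 to 6 for a lower response from day 2. A group left with 1 library was assumed to vary like the others. Each group holds 2 libraries, so the spread rests on few degrees of freedom, and CDKN1C on few counts.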
